A study of Mus musculus with 16 samples.

Results

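Interferon-stimulated genes are transcripts that cells raise when an interferon binds its receptor, and 38 of them were followed here in mouse liver. A gene was measured when a probe set of the array named that gene alone, and the probe set with the highest mean was taken where a gene had several. Of the 38 genes, 33 had such a probe set, among 19938 genes on the array that had one. Another 4 genes (Isg15, Gbp2, Igtp and Ifi47) were named only together with a neighbouring or similar gene, and no probe set was named Ifi44. A filter on dim probe sets was passed by 28 of the 33, and these were tested along with all other genes that passed, 13152 in total. Ifit2, Oas1a, Oas2, Mx1 and Mx2 did not pass it, so their levels are given and their changes were not part of the main tests. Dhx58, Zbp1, Oas3, Cmpk2 and Ifi27l2a passed, but their wild-type means lay below the filter level. Their differences from wild type are therefore set against dim signal.

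The study measured total RNA from liver on Affymetrix whole-transcript arrays in mice of strain 129. There were 4 genotypes with 4 arrays each: wild type, Rassf1a-/- (both copies of Rassf1a lost), Sav1+/- (1 copy of Sav1 lost) and Rassf1a-/- Sav1+/- (both alterations together, called the double genotype below). Rassf1a is a tumour suppressor, and Sav1 (Salvador) is a scaffold for the kinases of the Hippo cascade. The title of the study names liver tumours and the kinase Tbk1, which activates interferon genes when foreign nucleic acid is sensed. The labels used here give neither age nor sex nor the parts of the genes removed by the alleles or the cells that carry them, nor do they state that the 4 arrays of a genotype come from separate animals. The p-values therefore measure the spread between these arrays, which may be technical in part.

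In a cell that meets foreign nucleic acid, cytosolic sensors such as RIG-I and MDA5 act through adaptors and the kinases Tbk1 and Ikbke to switch on type I interferon. Secreted interferon then signals through Jak1 and Tyk2 to a complex that holds Stat2 and Irf9 and binds the interferon-stimulated response element (ISRE) in the promoters of the genes described here. Interferon gamma acts through another element, the gamma-activated site (GAS). In liver, hepatocytes, Kupffer cells (the resident macrophages) and endothelial cells can all respond.

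The promoters of 5 members are shown because their levels are described below and because they differ in the element that defines the family. Each sequence is the 250 bases before the RefSeq start of the gene on GRCm38.p6, read 5′ to 3′ on the gene's own strand, and capitals mark matches to the ISRE core, which was searched on both strands as GAAA, then any pair of bases, then GAAA.
Ifit1, chr19:34640639-34640888, + strand: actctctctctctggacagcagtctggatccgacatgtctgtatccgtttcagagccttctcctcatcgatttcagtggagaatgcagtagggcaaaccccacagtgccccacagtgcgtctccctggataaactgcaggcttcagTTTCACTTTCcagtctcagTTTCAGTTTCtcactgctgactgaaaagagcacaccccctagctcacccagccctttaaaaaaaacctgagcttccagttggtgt
Ifit3, chr19:34583279-34583528, + strand: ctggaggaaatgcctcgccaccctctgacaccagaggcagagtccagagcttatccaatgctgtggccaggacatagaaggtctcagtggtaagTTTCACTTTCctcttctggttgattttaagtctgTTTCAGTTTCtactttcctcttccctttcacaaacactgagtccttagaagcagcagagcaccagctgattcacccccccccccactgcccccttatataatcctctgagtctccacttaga
Rsad2, chr12:26456453-26456702, - strand: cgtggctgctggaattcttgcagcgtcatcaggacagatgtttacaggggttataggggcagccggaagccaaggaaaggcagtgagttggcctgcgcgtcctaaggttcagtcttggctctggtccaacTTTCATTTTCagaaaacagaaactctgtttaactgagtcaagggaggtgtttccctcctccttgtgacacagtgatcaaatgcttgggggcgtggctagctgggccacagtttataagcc
Cmpk2, chr12:26468965-26469214, + strand: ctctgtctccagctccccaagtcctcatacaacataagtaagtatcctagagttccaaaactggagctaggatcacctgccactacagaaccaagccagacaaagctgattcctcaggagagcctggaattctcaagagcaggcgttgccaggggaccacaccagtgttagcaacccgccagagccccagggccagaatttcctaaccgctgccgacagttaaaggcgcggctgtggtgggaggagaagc
Oasl1, chr5:114922990-114923239, + strand: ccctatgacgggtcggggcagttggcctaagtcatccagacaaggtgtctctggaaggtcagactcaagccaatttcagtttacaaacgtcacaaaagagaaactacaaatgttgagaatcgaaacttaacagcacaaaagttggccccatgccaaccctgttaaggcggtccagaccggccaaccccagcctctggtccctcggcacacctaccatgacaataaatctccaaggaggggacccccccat

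Ifit1, which binds foreign RNA 5′ ends, and Ifit3 had 2 matches each in this window, and Rsad2 (viperin, which makes a chain-terminating nucleotide) had 1. Cmpk2, a mitochondrial nucleotide kinase, and Oasl1 had no match in these letters. Cmpk2 is the next gene to Rsad2 on chromosome 12. Of the 33 measured members, 23 had a promoter in the RefSeq table used, and Ifi27l2a, Usp18, Rtp4 and Iigp1 were not among them. The ISRE core was found in 10 of these 23 genes (43.5%), against 3.46% of all 27025 genes with a promoter in the table. The genes with a match were Bst2, Gbp3, Ifit1, Ifit3, Irgm1, Oas1a, Oas3, Rsad2, Stat2 and Trim30a. The GAS letters (TTCNNNGAA, which reads the same on both strands in its fixed letters) were found in 4 of the 23 (17.4%), against 8.13% of all genes. Bst2 and Oas1a had matches to both motifs, and a match to one motif can share bases with a match to the other. A match describes the letters, and no binding was measured.

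The liver label was checked against marker genes. The 8 hepatocyte markers averaged between 13.13 and 13.47 on the log2 scale in every array. Group means of Sav1 were 8.53 ± 0.11 for wild type and 8.61 ± 0.14 for Rassf1a-/- (log2 signal, SD, n = 4). They were 7.64 ± 0.37 for Sav1+/- and 7.65 ± 0.27 for the double genotype, with no overlap between arrays with 1 copy and arrays with both copies. Rassf1 ranged from 6.94 to 7.42 in Rassf1a-/- arrays and from 7.21 to 7.59 in wild-type arrays, which overlap. The position of this probe set relative to the deleted part is not stated in the labels, so it does not check the Rassf1a label. Y-linked genes were high in 5 of the 16 arrays, called high-Y arrays here: Rassf1a-/- replicate 2, Sav1+/- replicates 3 and 4, and replicates 1 and 2 of the double genotype. Sav1+/- replicate 2 stood apart in the genes described here and also in Sav1 and Rassf1. Its Sav1 signal (8.17) was the highest of the arrays with 1 copy, against 8.37 in the lowest array with both copies. Its Rassf1 signal (8.14) was the highest of the 16 arrays. The counts over the members that involve Sav1+/- are therefore given with and without Sav1+/- replicate 2.

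The members as a group showed their widest spread in Sav1+/- livers. The mean log2 signal over the 33 members was 8.55, 7.92, 8.21 and 8.26 in the wild-type arrays and 8.57, 8.23, 8.34 and 8.70 in the Rassf1a-/- arrays. It was 8.11, 9.23, 8.56 and 8.84 in the Sav1+/- arrays and 8.36, 8.57, 8.15 and 8.52 in the double genotype. Sav1+/- replicate 2 was the highest of the 16 arrays and Sav1+/- replicate 1 the second lowest, so the groups overlap throughout. The group means were 8.24 ± 0.26, 8.46 ± 0.22, 8.69 ± 0.47 and 8.40 ± 0.19 in the same order (SD, n = 4). In liver as a whole, fewer cells of a type and less RNA per cell cannot be told apart in these values.

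**Figure D1:**
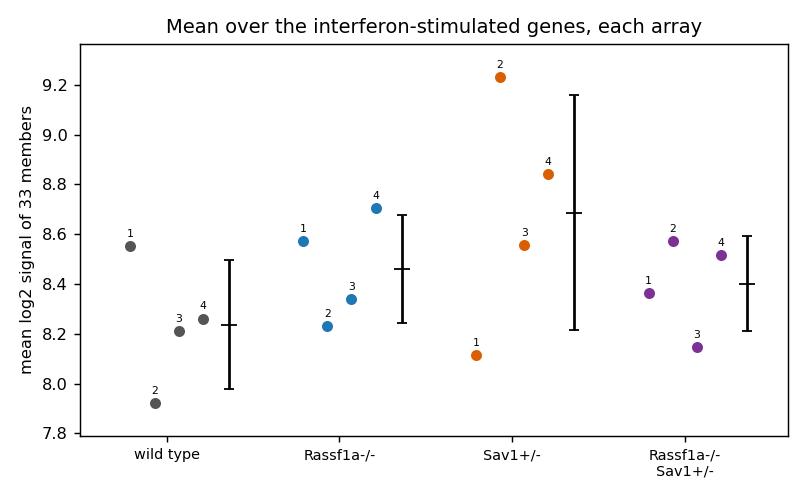
Mean log2 signal of the 33 measured interferon-stimulated genes in each array, by genotype; points are arrays with their replicate number, and the bar beside each group is its mean with SD (n = 4). The Sav1+/- arrays run from 8.11 to 9.23, which is wider than any other group, and all groups overlap.

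Sav1+/- replicate 2 held the highest value for 22 of the 28 tested members. Wild-type replicate 2 held the lowest value for 12 of them and Sav1+/- replicate 1 for 8. The median SD of the 33 members within a genotype was 0.52 in Sav1+/-, 0.31 in wild type, 0.27 in Rassf1a-/- and 0.32 in the double genotype. Over all 19938 genes the corresponding medians were 0.34, 0.20, 0.23 and 0.27. For 28 of the 33 members the largest of the 4 SDs was that of Sav1+/-. The median SD over all genes was also largest in Sav1+/-, so the wider spread was not particular to the members. The matching counts of highest arrays and largest SDs were not made over all genes.

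**Figure D2:**
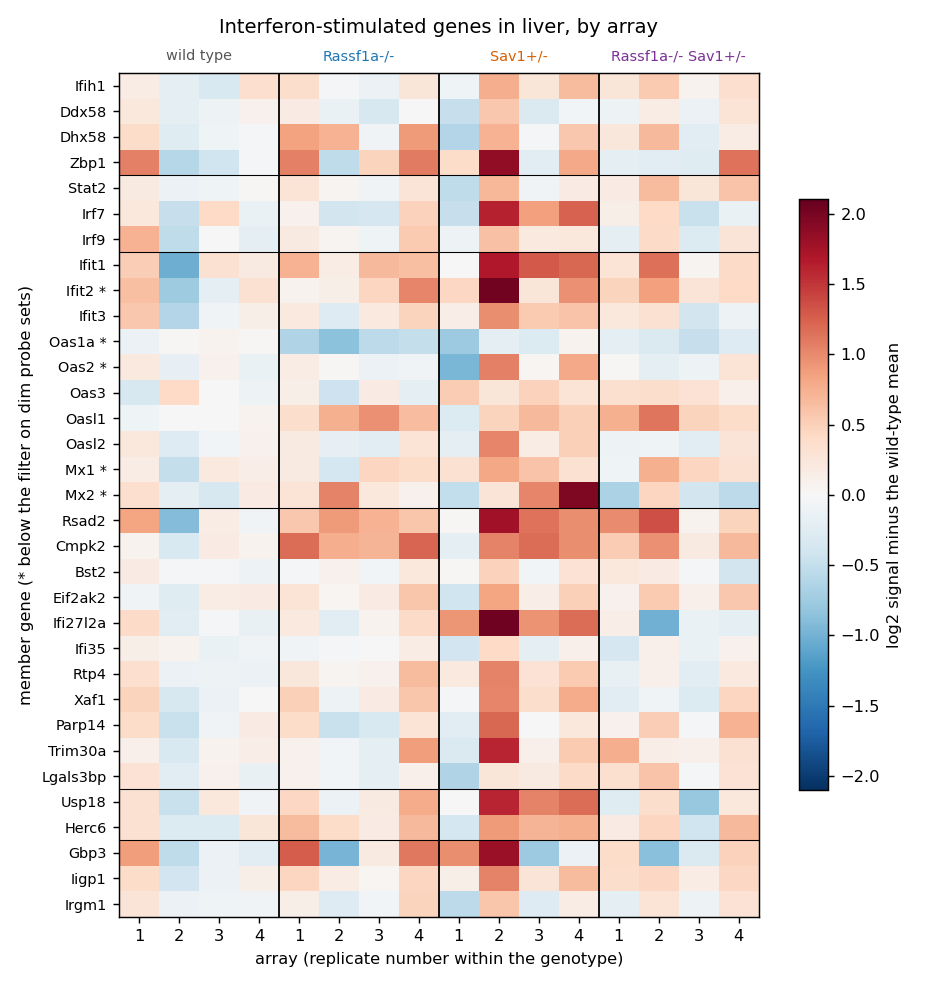
Each of the 33 measured members (rows, grouped by role) in each of the 16 arrays (columns, grouped by genotype), as log2 signal minus the wild-type mean of that gene; an asterisk marks the 5 members below the filter. Sav1+/- replicate 2 is above the wild-type mean for 32 of the 33 genes, and Sav1+/- replicate 1 for 11.

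The sensors of foreign nucleic acid gave no call in any comparison with wild type. Ifih1 (MDA5) had group means of 9.61 ± 0.31 (wild type), 9.73 ± 0.24 (Rassf1a-/-), 10.01 ± 0.40 (Sav1+/-) and 9.92 ± 0.20 (double genotype). Ddx58 (RIG-I) stayed between 10.10 and 10.23 in the 4 group means, with an SD of 0.19 to 0.46. Dhx58 (LGP2), which modulates these sensors, measured 7.69, 7.05, 7.22 and 7.26 in wild type and 8.14, 8.03, 7.23 and 8.20 in Rassf1a-/- arrays. Replicate 3 of Rassf1a-/- lay among the wild-type arrays and the other 3 lay above them. The difference was 0.60 on the log2 scale (SE 0.28, limma adjusted p = 0.479). Zbp1, a sensor of Z-form nucleic acid, spread widely inside every genotype, with an SD of 0.68 to 0.88.

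None of the 3 transcription factors was called, and the widest spread was that of Irf7, the factor that amplifies interferon production. Irf7 measured 8.97, 8.27, 9.17 and 8.61 in wild type and 8.84, 8.37, 8.40 and 9.24 in Rassf1a-/-. It measured 8.28 in Sav1+/- replicate 1 and 9.62 to 10.37 in the other 3 Sav1+/- arrays, and 8.88, 9.17, 8.29 and 8.62 in the double genotype. In Sav1+/-, 3 arrays lay above every other array and the other lay near the lowest. Sav1+/- minus wild type was 0.81 (SE 0.35, limma adjusted p = 0.503). Stat2 and Irf9, both parts of the ISRE-binding complex, had group means of 9.43 to 9.85 and 9.71 to 9.95. For Stat2 the highest mean was that of the double genotype, 0.42 above wild type (SE 0.20, limma adjusted p = 0.385).

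Among the tested Ifit and Oas genes, Ifit1 lay farthest from wild type in Sav1+/- and Oasl1 in Rassf1a-/-, and neither was called. Ifit1 measured 8.90, 7.37, 8.71 and 8.58 in wild type and 8.39, 10.07, 9.68 and 9.59 in Sav1+/-. It was 9.12, 8.55, 9.06 and 9.02 in Rassf1a-/- and 8.68, 9.55, 8.45 and 8.80 in the double genotype. Wild-type replicate 2 was the lowest of all arrays and 3 Sav1+/- arrays were the highest. Ifit3 followed a like order of group means: 9.01 ± 0.49, 9.17 ± 0.31, 9.58 ± 0.34 and 9.03 ± 0.32 in wild type, Rassf1a-/-, Sav1+/- and the double genotype.

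Oasl1 belongs to the oligoadenylate synthetase-like proteins and limits the translation of Irf7. It measured 8.10, 8.20, 8.21 and 8.28 in wild type, a range far tighter than in the other groups. It was 8.57, 8.95, 9.16 and 8.84 in Rassf1a-/-, 7.91, 8.66, 8.87 and 8.70 in Sav1+/- and 8.94, 9.32, 8.67 and 8.59 in the double genotype. All arrays that lack Rassf1a lay above all wild-type arrays, while Sav1+/- replicate 1 was the lowest of the 16. Oas3, a synthetase of the 2-5A messenger, measured 6.72, 7.47, 7.05 and 6.95 in wild type and 7.58, 7.30, 7.53 and 7.34 in Sav1+/-. Oasl2 had group means of 7.99 to 8.40.

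The 5 members below the filter had group means of 5.63 to 6.55 for Ifit2, 5.83 to 6.47 for Oas1a, 5.79 to 6.02 for Oas2, 5.89 to 6.40 for Mx1 and 5.70 to 6.67 for Mx2. Oas1a is singled out after its values were seen. Its wild-type arrays (6.35, 6.49, 6.54 and 6.50) all lay above its Rassf1a-/- arrays (5.84, 5.61, 5.92 and 5.98). In a fit without the filter the difference was -0.64 (SE 0.16, limma adjusted p = 0.149), and another probe set names Oas1a together with Oas1g. The Ifit, Oas, Mx and guanylate-binding genes belong to families of close copies. Whether their probe sets also take up signal of a relative was not tested.

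Ifi27l2a was the only member called in any of the 8 comparisons. This small interferon-induced protein of the ISG12 family measured 7.52, 6.90, 7.07 and 6.96 in wild type and 7.31, 6.87, 7.18 and 7.50 in Rassf1a-/-. It measured 8.04, 9.16, 8.04 and 8.29 in Sav1+/- and 7.25, 6.10, 6.97 and 6.91 in the double genotype. Every Sav1+/- array lay above every other array, also with replicate 2 left aside. The group means of Ifi27l2a in wild type (7.11), Rassf1a-/- (7.22) and the double genotype (6.81) lay below the filter level, and that of Sav1+/- (8.38) lay above it. Its differences from Sav1+/- were thus set against signal near or below that level. All 4 Sav1+/- arrays lay above the highest filter level of any array (7.44), so they by themselves met the filter. The separation of Ifi27l2a from the other groups is therefore not independent of how it entered the tests.

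Rsad2 and its neighbour Cmpk2 were not called in any comparison. Rsad2 measured 8.24, 6.50, 7.57 and 7.33 in wild type, 7.98, 8.30, 8.13 and 7.99 in Rassf1a-/-, 7.43, 9.17, 8.55 and 8.39 in Sav1+/- and 8.40, 8.77, 7.48 and 7.88 in the double genotype. Wild-type replicate 1 lay above 3 of the Rassf1a-/- arrays, so these groups overlap. Cmpk2 measured 6.93, 6.54, 7.03 and 6.94 in wild type, 8.04, 7.62, 7.57 and 8.08 in Rassf1a-/-, 6.66, 7.91, 8.03 and 7.84 in Sav1+/- and 7.38, 7.81, 7.05 and 7.54 in the double genotype. Wild type lay below all arrays of Rassf1a-/- and of the double genotype, and below 3 of the 4 Sav1+/- arrays.

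**Figure D3:**
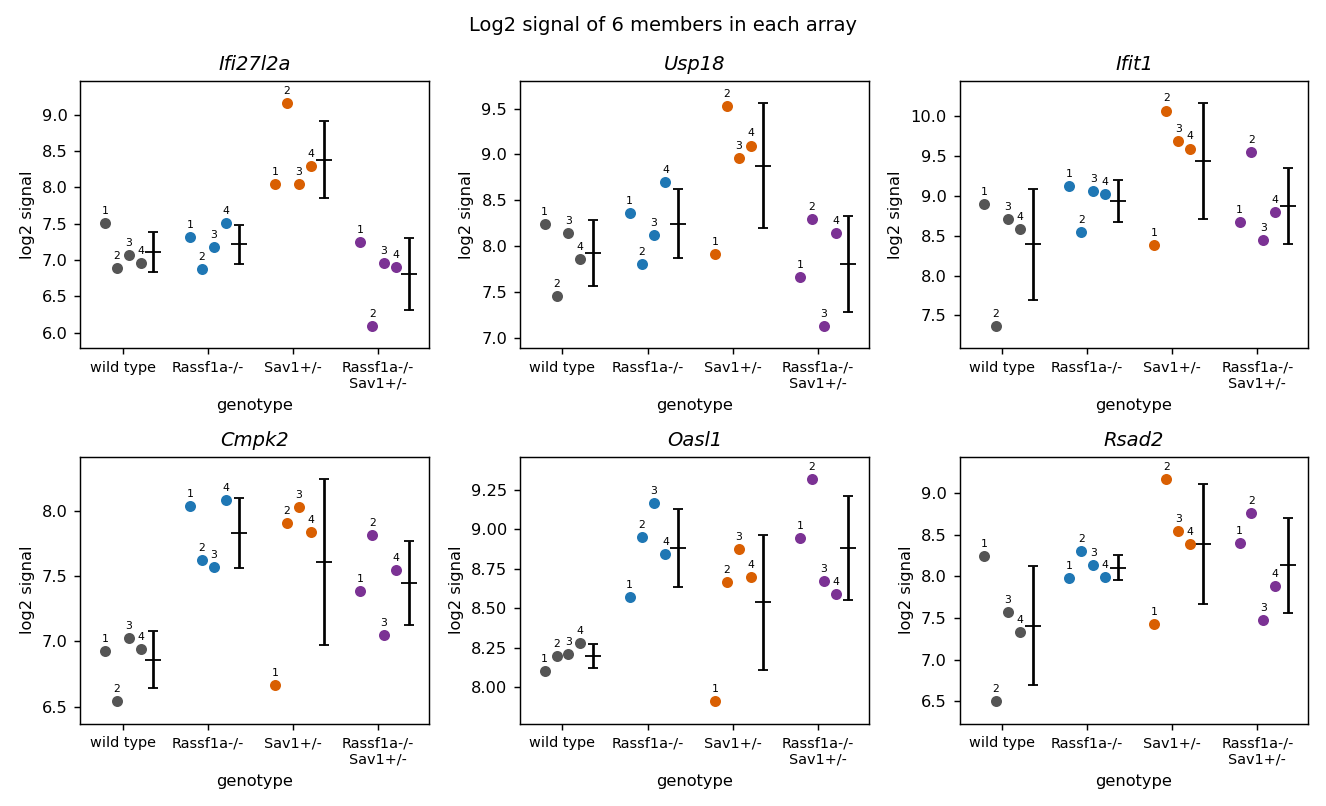
Log2 signal of Ifi27l2a, Usp18, Ifit1, Cmpk2, Oasl1 and Rsad2 in each array by genotype, with replicate numbers and, beside each group, the mean and SD (n = 4); each panel has its own axis. Ifi27l2a is highest in all 4 Sav1+/- arrays (8.04 to 9.16), and Cmpk2 and Oasl1 are above wild type in every array that lacks Rassf1a.

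The other antiviral effectors had smaller differences. Rtp4, a receptor transport protein induced by interferon, measured 9.06, 8.58, 8.60 and 8.59 in wild type, 8.94, 8.77, 8.80 and 9.37 in Rassf1a-/-, 8.91, 9.74, 9.01 and 9.26 in Sav1+/- and 8.55, 8.81, 8.48 and 8.90 in the double genotype. Its double-genotype arrays all lay below its Sav1+/- arrays, the nearest of them narrowly (8.90 and 8.91). Xaf1, a partner of an apoptosis inhibitor, had group means of 8.43 ± 0.34, 8.72 ± 0.31, 8.97 ± 0.47 and 8.40 ± 0.34 in the same order. The kinase Eif2ak2 (PKR), which halts translation when it binds double-stranded RNA, had group means of 8.17 to 8.50. Group means were 10.16 to 10.36 for Bst2 (tetherin, which holds budding virus at the membrane), 9.36 to 9.44 for Ifi35, 8.58 to 8.93 for Parp14 (an ADP-ribosyltransferase), 7.94 to 8.42 for Trim30a and 10.69 to 11.00 for Lgals3bp (a secreted glycoprotein).

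Genes of ISG15 conjugation were represented by Usp18 and Herc6. Usp18 removes ISG15 from proteins and damps the type I interferon receptor. It measured 8.24, 7.45, 8.15 and 7.86 in wild type, 8.36, 7.80, 8.12 and 8.70 in Rassf1a-/-, 7.92, 9.53, 8.96 and 9.10 in Sav1+/- and 7.66, 8.30, 7.13 and 8.14 in the double genotype. As for Irf7 and Ifit1, 3 Sav1+/- arrays were the highest of all and replicate 1 was not. Herc6, the ligase that attaches ISG15 in mice, measured 7.96 in Sav1+/- replicate 1 and 9.05 to 9.23 in the other 3, against 8.04 to 8.66 in wild type.

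The interferon-inducible GTPases, which attack the vacuoles of intracellular microbes, gave no call. Iigp1 had group means of 11.26 ± 0.34 (wild type), 11.53 ± 0.21 (Rassf1a-/-), 11.78 ± 0.41 (Sav1+/-) and 11.61 ± 0.13 (double genotype). Irgm1 averaged 10.33 to 10.42. Gbp3 had the largest scatter of the tested members over the 16 arrays (SD 0.83), with its highest value, 9.78, in Sav1+/- replicate 2.

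Loss of Rassf1a alone left every tested member without a call, and Cmpk2 and Oasl1 had the smallest p-values among the tested members. Cmpk2 was 0.97 higher on the log2 scale, or 1.96-fold (SE 0.25, limma adjusted p = 0.106), and Oasl1 0.68 higher, or 1.61-fold (SE 0.20, adjusted p = 0.174), in 4 of 4 arrays each. These were 2 of 28 members whose Rassf1a-/- arrays all lay above wild type, a pattern that 6.55% of all genes tested had. No tested member lay wholly below wild type, which 4.32% of all genes did. Oas1a, below the filter and described above, did lie wholly below (-0.64, SE 0.16, limma adjusted p = 0.149 in the fit without a filter). Of the 13152 genes 0.7% were called (adjusted p under 0.05). The wild-type means of Cmpk2 (6.86) and Dhx58 (7.30) lay below the filter level. All 4 Rassf1a-/- arrays of Cmpk2 (7.57 to 8.08) lay above the highest filter level of any array (7.44), so they by themselves met the filter. Next by p came Dhx58, given above, and then Rsad2 (0.69, SE 0.36), Herc6 (0.47, SE 0.27), Ifit1 (0.55, SE 0.35), Iigp1 (0.28, SE 0.20), Rtp4 (0.26, SE 0.19), Eif2ak2 (0.27, SE 0.22) and Xaf1 (0.29, SE 0.24), the last 7 with limma adjusted p of 0.529 to 0.681. Over the 33 members 26 differences were positive, with a median of 0.18, against a median of -0.05 over all 19938 genes, of which 42.8% were positive. Without wild-type replicate 2 the members' median was 0.07 (23 positive), and without Rassf1a-/- replicate 4 it was 0.09 (23 positive). Without Rassf1a-/- replicate 3 it was 0.27 (31 positive). At an unadjusted p under 0.05 there were 2 of 28 members, against 10.4% of all genes. Cmpk2 passed without Sav1+/- replicate 1 (adjusted p = 0.00926), and Cmpk2 (0.0172) and Oasl1 (0.0382) passed when only these genotypes were fitted.

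Loss of 1 Sav1 copy gave the largest differences of the members from wild type, and none was called. Ifi27l2a was 1.27 higher, or 2.42-fold (SE 0.26, limma adjusted p = 0.149), in 4 of 4 arrays. Ifit1 was 1.04 higher (SE 0.35, limma adjusted p = 0.336), Rsad2 0.97 (SE 0.36, adjusted p = 0.391), Usp18 0.95 (SE 0.31, adjusted p = 0.327) and Cmpk2 0.75 (SE 0.25, adjusted p = 0.336). Ifit3 (0.56, SE 0.24), Iigp1 (0.52, SE 0.20), Rtp4 (0.52, SE 0.19) and Oas3 (0.39, SE 0.17) had limma adjusted p of 0.375 to 0.493. Ifi27l2a was the 1 member of 28 whose Sav1+/- arrays all lay above wild type, a pattern that 0.441% of all genes had. These same arrays by themselves met the filter for Ifi27l2a, so its separation is a description only. No tested member lay wholly below wild type, against 4.24% of all genes. No gene of the 13152 was called (0%) by limma, where 1204 had an unadjusted p under 0.05 and the smallest adjusted p was 0.0748.

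Of the 33 members 29 were higher in Sav1+/- than in wild type, with a median of 0.48, against -0.01 over all genes, of which 47.7% were positive. At an unadjusted p under 0.05 there were 11 of 28 members, against 9.15% of all genes. This count rested on a few arrays. Without Sav1+/- replicate 2 it was 5 of 28 (16.1% of all genes), with 24 of 33 positive and a median of 0.30. Without Sav1+/- replicate 1 it was 16 (13.7% of all genes), with 32 of 33 positive and a median of 0.58. Without wild-type replicate 2 it was 6 (7.6% of all genes), and it was 4 (7.32% of all genes) when the 5 high-Y arrays were left out, with 30 of 33 positive. No member was called in any of these fits.

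**Figure D4:**
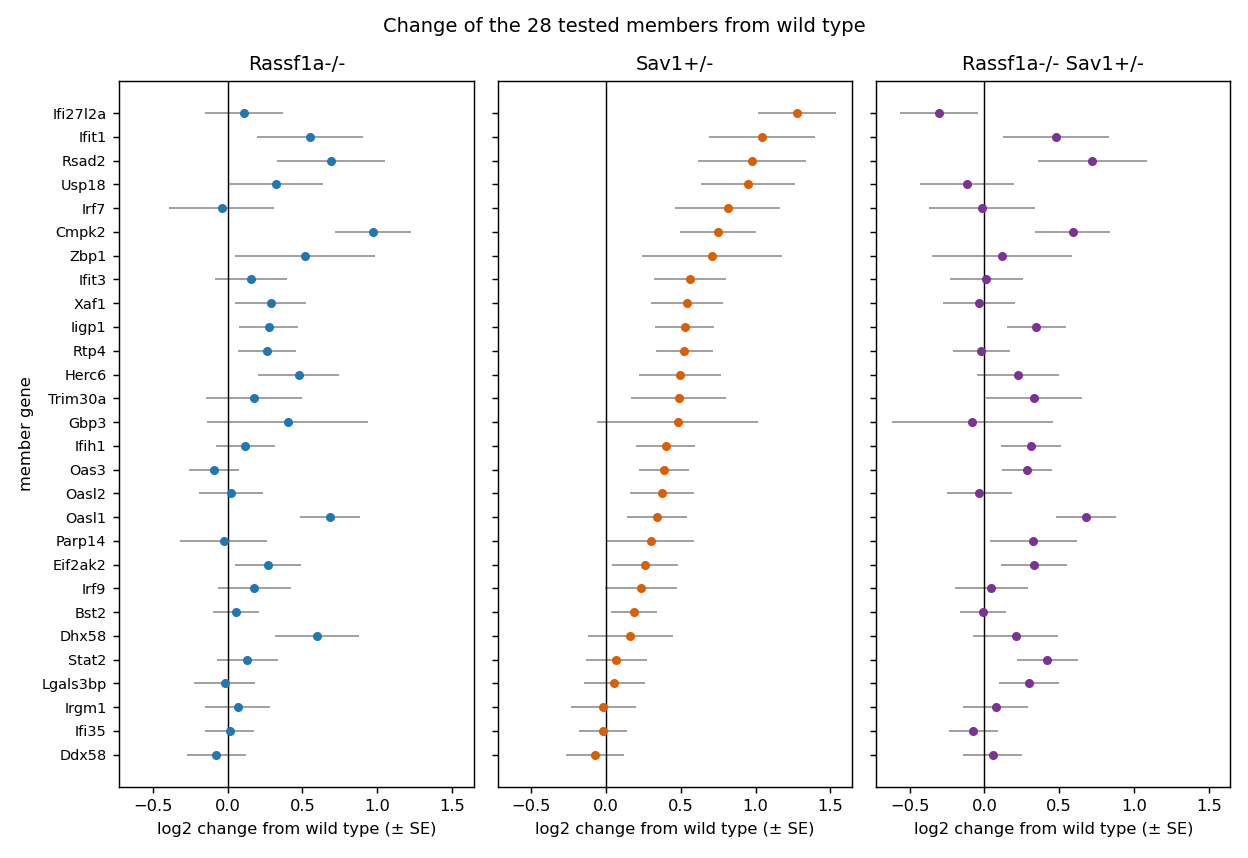
Difference from wild type (log2, with limma's SE) of the 28 tested members in Rassf1a-/-, Sav1+/- and the double genotype, in the order of the Sav1+/- difference; all 3 panels share the wild-type arrays. Ifi27l2a is 1.27 above wild type in Sav1+/- and 0.30 below it in the double genotype, and no member was called in any panel.

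In the double genotype no member was called against wild type, and Oasl1 and Cmpk2 had the smallest p-values. Oasl1 was 0.68 higher (SE 0.20, limma adjusted p = 0.134), in 4 of 4 arrays, and Cmpk2 0.59 (SE 0.25, adjusted p = 0.320), in 4 of 4. These were 2 of 28 members whose arrays all lay above wild type, against 6.28% of all genes, and none lay wholly below (4.49% of all genes). Of all genes 0.821% were called. Rsad2 (0.72, SE 0.36), Iigp1 (0.35, SE 0.20), Oas3 (0.28, SE 0.17), Ifih1 (0.31, SE 0.20), Eif2ak2 (0.33, SE 0.22), Lgals3bp (0.30, SE 0.20) and Ifit1 (0.48, SE 0.35) had limma adjusted p of 0.402 to 0.606. Of the 33 members 22 were positive, with a median of 0.12, against 0.06 over all genes, of which 59.5% were positive. The members' median was 0.04 without wild-type replicate 2 (17 positive) and 0.29 without wild-type replicate 1 (28 positive). Leaving out a double-genotype array gave 0.18 for replicate 1, 0.24 for replicate 3 and 0.07 for replicate 4. At an unadjusted p under 0.05 there were 2 of 28 members, against 13.6% of all genes. Oasl1 passed without Sav1+/- replicate 1 (adjusted p = 0.0408). The Rassf1a-/-, Sav1+/- and double genotypes were all set against the same 4 wild-type arrays, so their values are not independent.

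Loss of Rassf1a on the Sav1+/- background gave the 1 member call between genotypes. Ifi27l2a fell by 1.58 on the log2 scale, 2.99-fold lower in the double genotype than in Sav1+/- (SE 0.26, limma adjusted p = 0.00867), in 4 of 4 arrays. It passed in every fit that left out 1 array (adjusted p of 0.00930 to 0.0367). It did not pass when only these genotypes were fitted (0.118) or when the 5 high-Y arrays were left out (0.140), where the differences were -1.58 and -1.66. Called genes made up 0.836% of all genes in this comparison. The double-genotype mean of Ifi27l2a (6.81) lay below the filter level, and its Sav1+/- arrays by themselves met the filter.

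Usp18 was 1.07 lower in the double genotype than in Sav1+/- (difference -1.07, SE 0.31, limma adjusted p = 0.115), and without Sav1+/- replicate 1 it passed (-1.39, adjusted p = 0.0357). Irf7 (-0.83, SE 0.35), Xaf1 (-0.58, SE 0.24) and Rtp4 (-0.54, SE 0.19) had limma adjusted p of 0.184 to 0.284. Ifi27l2a and Rtp4 were the 2 of 28 members whose double-genotype arrays all lay below Sav1+/-, against 1.42% of all genes, and none lay wholly above (5.03% of all genes). For Ifi27l2a the Sav1+/- arrays by themselves met the filter. Of the 33 members 8 were positive, with a median of -0.19, against 0.07 over all genes, of which 61.4% were positive. Without Sav1+/- replicate 2, 14 were positive, with a median of -0.06, and without Sav1+/- replicate 1 there were 3, with a median of -0.39. The median was -0.28 without double-genotype replicate 2 and -0.11 without its replicate 3. Without the high-Y arrays it was -0.26, with 9 of 33 positive. At an unadjusted p under 0.05 there were 6 of 28 members, against 15% of all genes.

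With loss of 1 Sav1 copy on the Rassf1a-/- background, the members' median was near 0 over all 16 arrays. Of 33 members 16 were positive, with a median of -0.00, against 0.11 over all genes, of which 65.0% were positive. The median was -0.23 without the high-Y arrays (9 positive) and -0.13 without double-genotype replicate 2 (11 positive). Without double-genotype replicate 3 it was 0.07 (19 positive). No member was among the 0.0076% of genes called. The arrays of no tested member were fully separated, against 3.85% of all genes separated upward and 5.96% downward. The smallest p was that of Oas3 (0.37, SE 0.17, limma adjusted p = 0.317). Lgals3bp (0.32, SE 0.20), Ifi27l2a (-0.41, SE 0.26), Cmpk2 (-0.38, SE 0.25) and Rtp4 (-0.28, SE 0.19) had limma adjusted p of 0.460 to 0.484.

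Averaged over both Sav1 states, loss of Rassf1a gave a call for Ifi27l2a, where 2.23% of all genes were called. It fell by 0.73 (SE 0.19, limma adjusted p = 0.0471). With both Sav1 copies the difference was 0.11 (SE 0.26), and with 1 copy it was -1.58. The call held in 4 of 16 fits that left out 1 array, with adjusted p of 0.0365 to 0.0996. No member was called without a filter, with quantile normalization or without the high-Y arrays. Oasl1 was 0.51 higher (SE 0.14, limma adjusted p = 0.0686) and Cmpk2 0.40 higher (SE 0.18, adjusted p = 0.286). Irf7 (-0.43, SE 0.25) and Usp18 (-0.37, SE 0.22) had limma adjusted p of 0.434 and 0.453. Of 33 members 16 were positive, with a median of -0.00, against 0.01 over all genes. When Sav1+/- replicate 2 was left out there were 22 positive, with a median of 0.10, and without Sav1+/- replicate 1 there were 7, with a median of -0.08.

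Averaged over both Rassf1a states, loss of 1 Sav1 copy gave no member call, where 0.0228% of all genes were called. Oas3 was 0.38 higher (SE 0.12, limma adjusted p = 0.159), and Ifi27l2a was 0.43 higher (SE 0.19, adjusted p = 0.288). Iigp1 (0.30, SE 0.14), Ifih1 (0.30, SE 0.14) and Rsad2 (0.50, SE 0.26) had limma adjusted p of 0.332 to 0.369. Of 33 members 28 were positive, with a median of 0.17, against 0.05 over all genes, of which 59.0% were positive. Leaving out Sav1+/- replicate 2 gave 24 positive, with a median of 0.07, and leaving out replicate 1 gave 32, with a median of 0.28. Leaving out the high-Y arrays gave 23, with a median of 0.09.

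The interaction asks whether the Rassf1a difference depends on the Sav1 copies, and no gene passed it (0% of 13152 called by limma, 1236 at an unadjusted p under 0.05, smallest adjusted p 0.316). That smallest value was the one of Ifi27l2a, at -1.69 (SE 0.37, limma adjusted p = 0.316). Usp18 (-1.39, SE 0.44), Cmpk2 (-1.13, SE 0.36), Xaf1 (-0.86, SE 0.34) and Rtp4 (-0.81, SE 0.27) had limma adjusted p of 0.383 to 0.458. Of 33 members 27 were negative, with a median of -0.43, against 0.12 over all genes, of which 64.7% were positive. Without Sav1+/- replicate 2 the members' median was -0.28 (9 positive), and without Sav1+/- replicate 1 it was -0.62 (5 positive).

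Most members went up and down together from array to array within a genotype. After each genotype's mean was taken off, the median correlation of a tested member with the mean of the other tested members was 0.82 over the 16 arrays, and 25 of 28 were above 0.5. Without Sav1+/- replicate 2 the median was 0.81, and 23 of 28 were above 0.5. These arrays share their RNA and hybridisation, so the correlations are a description of shared variation. Oasl2 (0.94), Iigp1 (0.94), Parp14 (0.93) and Irgm1 (0.92) were closest to the rest. Oas3 (-0.47), Oasl1 (0.26) and Gbp3 (0.45) were not. Ifi27l2a had 0.55, and 0.28 without Sav1+/- replicate 2. Members with an ISRE core in the promoter window had a median difference from wild type of 0.43 in Sav1+/- (10 genes), and members without one had 0.37 (13 genes). In Rassf1a-/- these medians were 0.14 and 0.18. Ifi27l2a, which had no promoter sequence, was in neither set.

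Of the other interferon pathway genes listed, Rnf213 and Lgals9 were called. Among 43 other interferon-induced genes with a probe set, of which 32 were tested, Rnf213, a large ubiquitin ligase, fell in every comparison that removed Rassf1a. It measured 9.62, 9.25, 9.41 and 9.55 in wild type, 8.19, 7.69, 7.96 and 8.27 in Rassf1a-/-, 8.97, 10.43, 9.75 and 10.12 in Sav1+/- and 8.25, 8.47, 7.79 and 8.55 in the double genotype. All arrays without Rassf1a lay below all others. Against wild type the log2 difference of Rassf1a-/- was -1.43 (SE 0.25, limma adjusted p = 0.00782). For the double genotype it was -1.19 (SE 0.25, limma adjusted p = 0.0321). Against Sav1+/- the double genotype was at -1.55 (limma adjusted p = 0.00697). Lgals9, a galectin, had group means of 12.46, 12.89, 12.42 and 12.87 in wild type, Rassf1a-/-, Sav1+/- and the double genotype. It rose by 0.44 in the Rassf1a effect averaged over both Sav1 states (SE 0.09, limma adjusted p = 0.0119), and was not called in Rassf1a-/- against wild type (0.43, SE 0.12, limma adjusted p = 0.163). Pnpt1, an RNA-degrading enzyme, was at 0.41 in that comparison (SE 0.15, limma adjusted p = 0.301). Calls among the 32 tested numbered 1 in Rassf1a-/- against wild type, where 0.7% of all genes were called. They numbered 1 in the double genotype against wild type (0.821% of all genes) and 1 against Sav1+/- (0.836%). Rnf213 and Lgals9 were the calls for the averaged Rassf1a effect (2.23% of all genes).

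No interferon, receptor or signalling gene on the lists was called against wild type. Of 8 interferon genes with a probe set, 2 passed the filter: Ifna5, with group means of 7.91 to 8.16, and Ifnl2, with 9.74 to 9.97. The 6 receptor chains were tested, and 0 of 6 were positive in Rassf1a-/- and in Sav1+/-, with medians of -0.16 and -0.14. The smallest p was that of Ifnar2, a chain of the type I receptor, at -0.30 in Sav1+/- (SE 0.12, limma adjusted p = 0.448), followed by Ifnlr1 (-0.34 in Rassf1a-/-, SE 0.16, adjusted p = 0.479) and Ifngr2 (-0.28 in Sav1+/-, SE 0.15, adjusted p = 0.622). Among 6 tested genes of Jak-Stat signalling, Jak1 was 0.51 higher in the double genotype (SE 0.12, limma adjusted p = 0.0649). Jak2 (0.46, SE 0.21) and Stat3 (0.43, SE 0.29) followed, with limma adjusted p of 0.354 and 0.551. Group means of Jak1 were 11.38, 11.72, 11.60 and 11.89 in wild type, Rassf1a-/-, Sav1+/- and the double genotype.

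Among 5 other interferon regulatory factors, Irf5, a factor of immune cells, was 0.80 higher in the double genotype (SE 0.22, limma adjusted p = 0.110). Irf5 was 0.76 higher in Rassf1a-/- alone (limma adjusted p = 0.174) and 0.43 higher in Sav1+/- (adjusted p = 0.610). Irf2 (0.21, SE 0.15) and Irf1 (-0.25, SE 0.20), both in Sav1+/-, had limma adjusted p of 0.736 and 0.761. Among 11 sensing genes, adaptors and kinases, Ikbke was 0.66 higher in the double genotype (SE 0.22, limma adjusted p = 0.174), Myd88 0.34 (SE 0.12, adjusted p = 0.199) and Tlr9 0.50 (SE 0.26, adjusted p = 0.428). Ikbke was 0.43 higher in Rassf1a-/- alone (limma adjusted p = 0.511) and 0.03 higher in Sav1+/- (adjusted p = 0.984). Tbk1 ranged from 7.73 to 8.57 in 15 arrays and was 9.51 in Sav1+/- replicate 2. Its differences from wild type were 0.06 in Rassf1a-/-, 0.27 in Sav1+/- and -0.02 in the double genotype (SE 0.26, limma adjusted p of 0.814 to 0.986). Among 10 genes of class I antigen presentation, the smallest p-values were those of Psmb10 (-0.44 in the double genotype, SE 0.23, limma adjusted p = 0.438), Nlrc5 (-0.26 in Rassf1a-/-, SE 0.16, adjusted p = 0.586) and B2m (0.20 in Sav1+/-, SE 0.15, adjusted p = 0.731).

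Markers of Kupffer cells and macrophages were high in the same array as the members, Sav1+/- replicate 2. The mean log2 signal of the 16 markers was 11.02 in that array, against 9.67 to 10.16 in the other Sav1+/- arrays, 9.61 to 10.35 in wild type, 9.35 to 10.28 in Rassf1a-/- and 9.98 to 10.71 in the double genotype. In Sav1+/- against wild type, 16 of 16 markers were positive, with a median of 0.32, and without replicate 2 there were 9 of 16, with a median of 0.03. In the double genotype 14 of 16 were positive, with a median of 0.34, where the members had a median of 0.12. In Rassf1a-/- 5 of 16 were positive, with a median of -0.09, where the members had a median of 0.18. Of all genes 42.8%, 47.7% and 59.5% were positive in Rassf1a-/-, Sav1+/- and the double genotype. No marker was called in these comparisons. The endothelial list averaged 9.46 to 10.03 in Sav1+/- and 9.44 to 9.79 in wild type, and the T cell list 6.96 to 7.62 and 7.03 to 7.36. The neutrophil list reached 7.25 in Sav1+/- replicate 2 and 7.79 in Rassf1a-/- replicate 4, against 6.24 to 6.39 in wild type. Of its 7 genes 2 passed the filter, so its mean is largely dim signal. Those genes, S100a9 and Ly6g, differed from wild type by -0.01 and 0.04 in Rassf1a-/-. The part of these cell types in the members' levels was not tested.

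**Figure D5:**
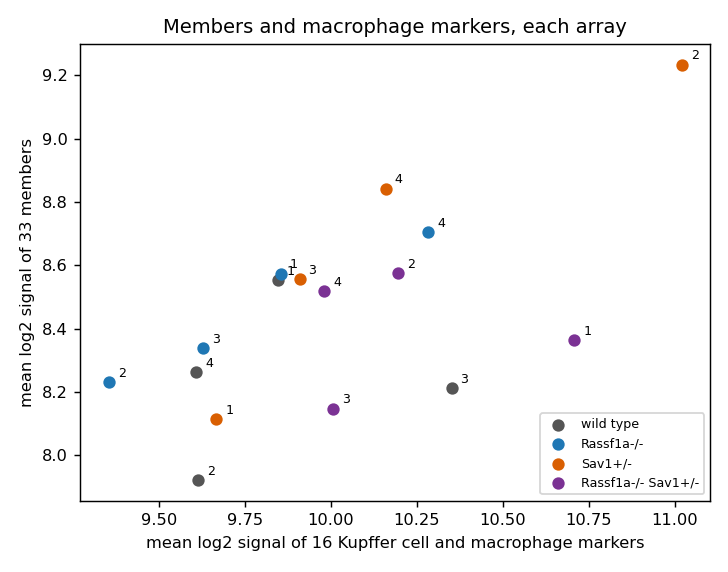
Mean log2 signal of the 33 members against the mean log2 signal of 16 Kupffer cell and macrophage markers, each point an array with its replicate number, coloured by genotype. Sav1+/- replicate 2 is the highest on both axes (11.02 and 9.23), and the other arrays overlap between genotypes.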

How the data were processed

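The authors deposited log2 signals per probe set; the submitters' processing notes name Affymetrix Expression Console. How signals were summarised and normalized, and with which version, is not given in the labels. Array medians ran from 7.20 to 7.51. Of 35556 probe sets, 21789 named 1 gene in the platform annotation, 1621 named several and 12146 none. Only those naming 1 gene were used, and 21698 matched RefSeq genes (GRCm38.p6) by gene ID.

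Probe sets were tested where they were at or above the 40th percentile of its array in at least 4 arrays (a log2 signal of 7.16 to 7.44). The model, in limma 3.58.1 under R 4.3.3, held 4 genotype means, which left 12 residual degrees of freedom, and variances were moderated with eBayes. Tests were two-sided, and p-values were adjusted by Benjamini-Hochberg over 13152 genes within each of 8 comparisons. SE is limma's standard error and SD the spread of arrays. The pipeline was tested on simulated data. The number of arrays and the spread between them limit the precision.

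Replicates are numbered in the order of the samples. The members and lists were chosen with earlier results of these data known. Statistics are printed for up to 10 members of the smallest p against wild type and 5 elsewhere, for called genes or up to 3 genes of each other pathway list, and for Tbk1, and levels may be given for any member. Promoter sequences came from RefSeq. Alternatives were no filter, a filter at the 60th percentile, averaging probe sets of the same gene, quantile normalization, array weights, trended and robust eBayes, the Y-linked mean as a covariate, no high-Y arrays, only the genotypes compared and leaving out each array.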

Additional observations from a re-analysis of the deposited data

Results flagged for a closer look

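Of 76 groups of 4 arrays tested for 1 array far from the other 3 (by Dixon's 95% critical value), 3 were set apart, where chance alone sets apart about 1 in 20 groups. Cmpk2 was at 6.66 in Sav1+/- replicate 1, against 7.84 to 8.03 in the other 3 arrays. Herc6 was at 7.96 in the same array, against 9.05 to 9.23. Rtp4 was at 9.06 in wild-type replicate 1, against 8.58 to 8.60.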

How the results depend on the processing

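No paired analysis was made, because the labels name no pairing between arrays of different genotypes. The number of members called for the averaged Rassf1a effect was 1 in the main analysis and 0 without a filter, with quantile normalization and with the 5 high-Y arrays left out, and 2 with array weights. In the double genotype against Sav1+/- it was 1, and 0 with the filter at the 60th percentile (Ifi27l2a was not tested there), with only those genotypes fitted, and with the high-Y arrays left out. Against wild type it was 0 in Rassf1a-/- and the double genotype, and 3 (Cmpk2, Oasl1 and Dhx58) and 1 (Oasl1) with array weights. In Rassf1a-/- it was 2 with only those genotypes fitted. For the averaged Sav1 effect it was 1 with array weights (Oas3). Array weights also raised the calls over all genes in these 4 comparisons, from 92 to 898 in Rassf1a-/- and from 108 to 1231 in the double genotype, both against wild type, from 293 to 800 for the averaged Rassf1a effect and from 3 to 1517 for the averaged Sav1 effect. They lowered them from 110 to 55 in the double genotype against Sav1+/-. With only the compared genotypes fitted, all genes gave 190 calls in Rassf1a-/- against wild type and 1 in the double genotype against Sav1+/-, where 110 were called otherwise. The median of the members between the double genotype and Rassf1a-/- was -0.23 without the high-Y arrays and -0.00 with them.

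Leaving out 1 array at a time gave 0 to 1 members called in Rassf1a-/- and in the double genotype against wild type, 1 to 2 against Sav1+/- and 0 to 1 for the averaged Rassf1a effect. The gain in the comparisons of genotypes came without Sav1+/- replicate 1. The averaged call was lost without any of the wild-type or Rassf1a-/- arrays, Sav1+/- replicate 4, or double-genotype replicates 2, 3 and 4. Over all genes the calls ran from 54 to 128, from 39 to 209, from 27 to 479 and from 192 to 572 in these 4 comparisons. No named member changed sign in any alternative that tested it. The cause of these differences was not tested.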
